A study of Caenorhabditis elegans with 6 samples.

Results

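The octopamine response that differed between wild-type Caenorhabditis elegans and animals lacking a pair of octopamine receptors was read from 4 of the 6 arrays of the study. For each gene the log2 ratio of the octopamine-treated over the untreated array was taken in the wild type N2 and in double mutants carrying ser-3(ok2007);ser-6(tm2146), and the second was subtracted from the first. A positive difference thus means that the treated over untreated ratio was higher in N2, and a negative one that it was higher in the double mutant. The remaining pair of arrays, from a daf-16 mutant without and with octopamine, is set beside these values but does not enter the difference.

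All animals were in the N2 background, were grown from synchronised eggs over 3 days, and then spent 2 days on plates with no octopamine or with octopamine at 20 mg/mL. Whole bodies of 5-day-old animals, which the labels also call day 4 adults, gave the RNA. The daf-16 strain lacks the FOXO transcription factor DAF-16, and the series title ties octopamine to stress resistance and to this factor, so the receptor mutant addresses whether gene changes after octopamine need SER-3 and SER-6. Each group was 1 array, labelled replicate 1, and a difference of 4 single arrays leaves no spread from which a test could be made. No p-value, standard error or replicate check therefore exists for any value given here, and the counts and medians describe these arrays. The labels do not say whether the arrays came from separate cultures.

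Octopamine is the invertebrate relative of noradrenaline and in C. elegans is made from tyrosine by way of tyramine, through the enzymes TDC-1 and TBH-1. It is a signal of food shortage: SER-3 and SER-6 are G protein-coupled receptors that respond to it, and a further receptor, OCTR-1, is still encoded in the double mutant. Octopamine signalling is known to affect locomotion, egg laying, fat stores and innate immune gene expression.

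The targeted genes were read first. The ser-3 probe set read 23.4 in untreated and 25.4 in treated N2, and 18.1 and 17 in the double mutant. It was thus lower in the mutant by log2 ratios of -0.37 and -0.57, on dim signals close to the limit of 15.5 used to keep genes. For ser-6 no assigned probe set was found. The deposited labels do not say whether the ser-3 probe set lies in the deleted part, and one lying elsewhere would not check the label. The octr-1 signal was 32.3 and 28.6 in N2 and 26.3 and 27.5 in the double mutant, a difference of -0.24.

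The enzymes that make octopamine had higher signals. The brightest tdc-1 probe set, for the tyrosine decarboxylase, read 792 and 767 in N2 and 722 and 674 in the double mutant, a difference of 0.05. For tbh-1, the tyramine beta-hydroxylase that makes octopamine from tyramine, the signals were 1447 and 1325 in N2 and 1278 and 838 in the mutant. The treated mutant array was the lowest of the 4, with octopamine changes of -0.13 in N2 and -0.61 in the double mutant. Probe sets for the tyramine receptors tyra-2, tyra-3, ser-2 and lgc-55 were all below the limit of 15.5. The 4 daf-16 probe sets had differences of -0.75, -0.37, -0.30 and -0.26, all with a higher treated over untreated ratio in the double mutant.

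For most genes the octopamine change lay within 0.5 of each other in both strains. Over the 10251 genes kept, the difference had a median of 0.02 and a standard deviation of 0.35 across genes, with quartiles at -0.19 and 0.23 and a full range of -2.28 to 2.21. A difference of at least 1, which is a 2-fold gap between the strains, was found for 78 genes (0.761% of those kept) toward a higher ratio in N2 and for 29 genes (0.283%) toward a lower one. At a difference of at least 0.5, 770 genes (7.51%) were higher and 567 (5.53%) lower. These numbers can be set beside the octopamine change within each strain. In N2, octopamine went with at least 2-fold higher signals in 123 genes (1.2%) and with lower ones in 149 (1.45%). In the double mutant 101 genes (0.985%) were past this limit upward and 222 (2.17%) downward.

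**Figure D1:**
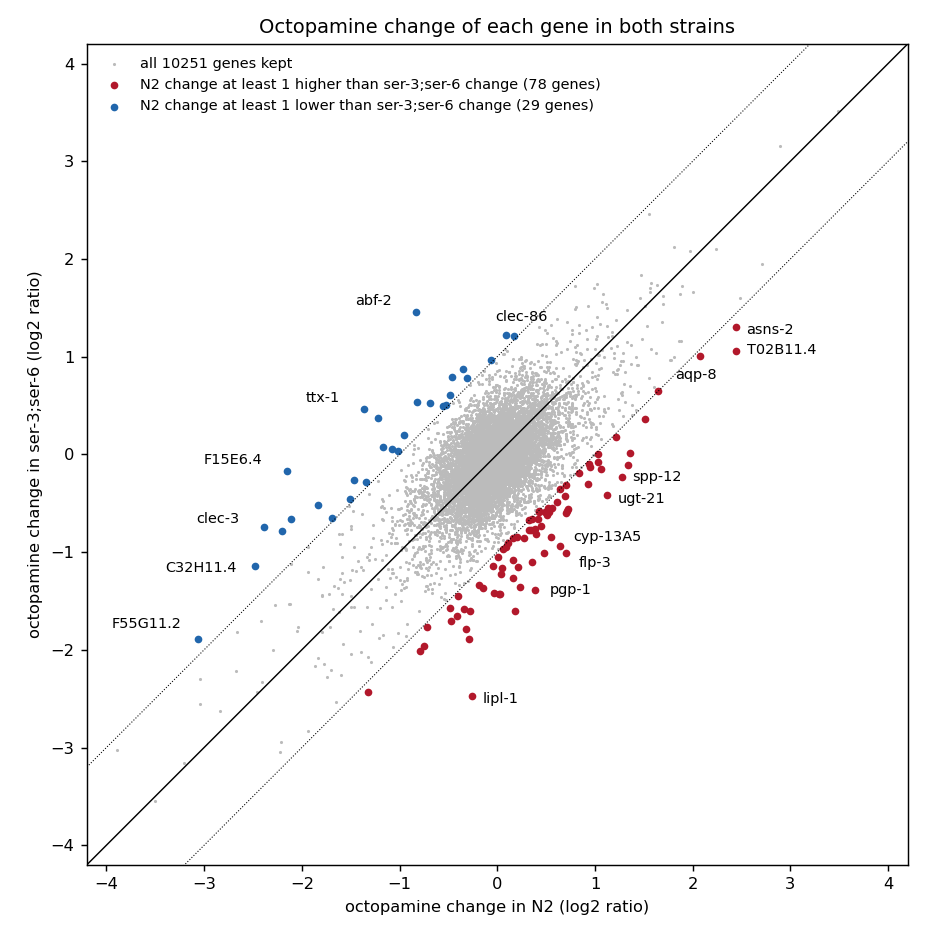
Octopamine change of each gene in N2 (x axis, log2 ratio of treated over untreated) against that in ser-3;ser-6 (y axis, log2 ratio), with the 78 genes at least 1 higher in N2 in red and the 29 at least 1 lower in blue. The solid line marks equal change and the dotted lines a difference of 1; most of the 78 lie below zero on the y axis, with lipl-1 the farthest from the line, and most of the 29 lie left of zero on the x axis.

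The scatter of both changes shows that the 78 and the 29 genes arose in different ways. Among the 78, the median octopamine change was 0.39 in N2 and -0.83 in the double mutant. By fixed limits, 26 of them were at least 2-fold lower with octopamine in the double mutant while staying within 0.5 in N2, 9 were at least 2-fold higher in N2 while staying within 0.5 in the mutant, and 10 went past 0.5 in opposite directions. The other 33 fell between these classes. Among the 29, the median change was -1.07 in N2 and 0.19 in the double mutant: 9 were lower in N2 alone, 2 were higher in the mutant alone, 4 went in opposite directions and 14 fell between.

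The limit of 1 cuts through a continuous range. Just inside it were nhr-106 and srr-4, both at 1.00, and C46F11.4 at -1.03, and just outside were utx-1 and nhr-100, which also round to 1.00, and gei-13 at -0.99. Of the 78 genes 10, and of the 29 genes 7, had a signal below 15.5 on at least 1 of the 4 arrays, where a small shift in signal makes a large ratio. Among those named below, flp-3, flp-11, spp-12, nlp-35, anmt-3, clec-3, unc-25, nhr-90, oac-20, dct-7 and T16G1.6 are of this kind. Spread across genes also varied with signal. In 4 equal groups of genes from dim to bright, the standard deviation of the difference was 0.36, 0.40, 0.33 and 0.28, widest in the second group. In 2163 genes with several probe sets over the limit, the gap between the highest and the lowest difference of 1 gene had a median of 0.30, which measures disagreement between probes on the same arrays.

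The gene that differed most toward N2 was lipl-1, a lysosomal triglyceride lipase known to be induced by fasting. Its signals were 37.8 in untreated and 31.6 in treated N2, and 167 and 30.2 in the double mutant in the same order. The untreated mutant array stood apart from the other 3, and from both daf-16 arrays at 25.3 and 27.7. Octopamine changes were -0.26 in N2 and -2.47 in the double mutant, a difference of 2.21. The other lysosomal lipases did not share this pattern: of 8 on the array 4 were kept, and lipl-2, lipl-5 and lipl-7 had differences of -0.35, 0.27 and 0.31. In RNA of whole animals, fewer cells of a type and less RNA per cell cannot be told apart.

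Genes for other lipid proteins were also lower after octopamine in the double mutant. The gene far-8, for a protein of the nematode family that binds fatty acids and retinol, read 249 and 294 in N2 and 280 and 109 in the mutant. The treated mutant array was the low one, at a change of -1.36 against 0.24 in N2, and the difference was 1.59. The gene lbp-8 encodes a fatty acid-binding protein known to carry lipid signals from the lysosome to the nucleus. Its signals were 69.1 and 70.3 in N2 and 80.9 and 30.1 in the double mutant, a difference of 1.45. Again 3 arrays lay close together and the treated mutant array was low, although in daf-16 the gene read 29.2 and 40.7.

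The family of fatty acid-binding lbp and far genes did not move as a whole. Of 15 kept, 3 had a difference of at least 0.5 and 1 of at most -0.5, where all genes gave 7.51% and 5.53%, with a median of 0.16. The third was far-6 at 0.60, and the opposite one was far-2, the brightest, with signals of 6893 and 4644 in N2 and 6093 and 5856 in the mutant and a difference of -0.51. Among 23 desaturases, elongases and other genes of fat synthesis the median was 0.11, and the elongase elo-3 was at 1.13 with signals of 194, 235, 259 and 143 in N2 untreated, N2 treated, mutant untreated and mutant treated. The desaturase fat-5 followed at 0.79. All other members stayed under 0.5.

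**Figure D2:**
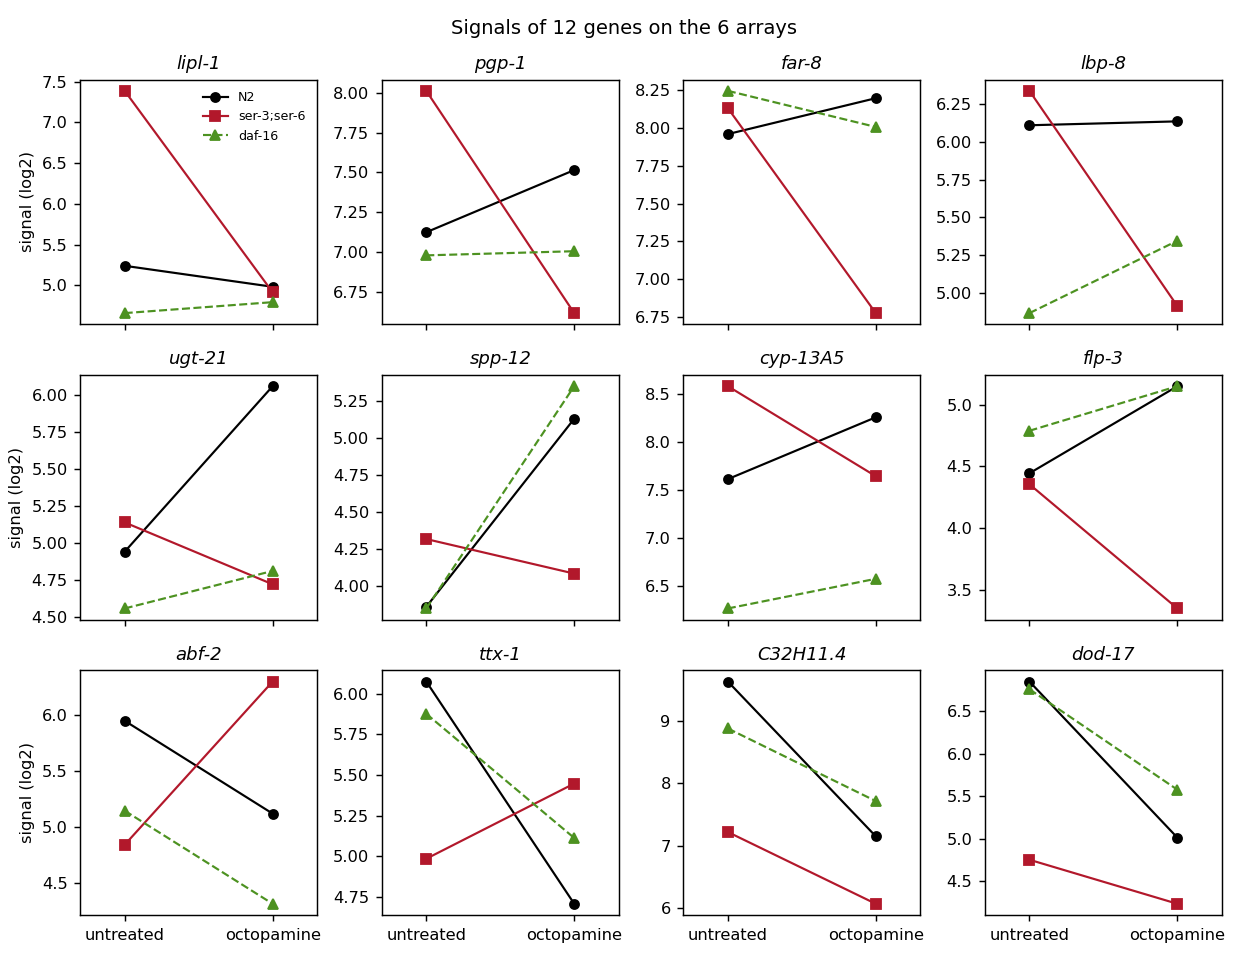
Signals (log2, y axis) of 12 genes on the 6 arrays, untreated and with octopamine (x axis), for N2 (black circles), ser-3;ser-6 (red squares) and daf-16 (green triangles), 1 array per point and a separate scale for each gene. In lipl-1 the untreated ser-3;ser-6 array is high at 167, in far-8 and lbp-8 the treated one is low at 109 and 30.1, and in C32H11.4 and dod-17 both ser-3;ser-6 arrays are low.

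Several genes of detoxification and export were on the same side. The gene pgp-1, for a P-glycoprotein that pumps small molecules out of intestinal cells, read 140 and 183 in N2 and 258 and 98.3 in the double mutant. It was higher with octopamine in N2 by 0.39 and lower in the mutant by -1.39, a difference of 1.78. The cytochrome P450 gene cyp-13A5 had signals of 196 and 306 in N2 and of 384 and 200 in the mutant. Changes of 0.65 and -0.94 thus lay on opposite sides of zero, 1.59 apart, and the untreated mutant and the treated N2 array were the higher ones. The gene ugt-21, for an enzyme that attaches sugars to small molecules, read 30.7 and 66.8 in N2 and 35.3 and 26.4 in the mutant. Here the treated N2 array was the high one, with a change of 1.12 against -0.42 and a difference of 1.54.

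Members of these families went both ways around those genes, and 7.51% of all genes were past 0.5 and 5.53% past -0.5. Of 35 cytochrome P450 genes kept, 8 (22.9%) had a difference of at least 0.5 and 2 (5.71%) of at most -0.5, with a median of 0.11. The others near the top were cyp-37B1 at 1.24, cyp-43A1 at 0.98 and cyp-13A2 at 0.88, all lower with octopamine in the double mutant by -1.58, -0.97 and -1.09. Of 44 UDP-glucuronosyltransferase genes 8 (18.2%) were past 0.5 and 4 (9.09%) past -0.5, and the median was 0.06. On the low side were ugt-5 at -0.95, with signals of 72.7 and 55.2 in N2 and 55.8 and 82 in the mutant, and ugt-53 at -0.91. Of 31 glutathione S-transferases 2 (6.45%) were past 0.5 and 4 (12.9%) past -0.5, around a median of 0.05.

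The glutathione S-transferases held members at both ends. The gene gst-28 read 58.1 and 41.9 in N2 and 91.5 and 28 in the double mutant, a difference of 1.24. The gene gst-4, widely used as a reporter of the oxidative stress factor SKN-1, had signals of 839 and 873 in N2 and of 316 and 641 in the mutant. Its difference of -0.97 came with a low untreated mutant array and little change in N2. Among 34 ABC transporters the median was 0.08. Past 0.5 were 2 (5.88%, against 7.51% of all genes), pgp-1 and abt-4, the latter at 0.91. Past -0.5 were 3 (8.82%, against 5.53% of all genes).

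The treated mutant array was also the low one for further named genes. The small heat shock gene hsp-16.41 read 28.4 and 28.8 in N2 and 47.4 and 17.6 in the double mutant, a difference of 1.45. The lectin gene clec-210, whose family binds carbohydrates and includes many immune effectors, read 54.5 and 69.5 against 89.7 and 41.8, also at 1.45. For both, N2 stayed within 0.5 while the mutant went from the highest to the lowest of the 4 arrays. The genes pugs-8, pes-23, pipp-4P and anmt-3 had differences of 1.79, 1.47, 1.43 and 1.38, and each was at least 2-fold lower with octopamine in the mutant. The sequence-named genes F09C8.1 and C25E10.10, at 1.60 and 1.49, had mutant changes of -1.89 and -1.01. F09C8.1 was an exception and resembled lipl-1 in its high untreated mutant signal. It read 111.5 and 91.5 in N2 and 378 and 102 in the double mutant, with the treated N2 array the lowest.

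A smaller set was higher with octopamine in N2 and not in the double mutant. The saposin-like gene spp-12, from a family of membrane-active proteins with antimicrobial members, read 14.5 and 35 in N2 and 19.9 and 17 in the mutant, a difference of 1.51. In daf-16 it read 14.4 and 40.8, so the treated N2 and daf-16 arrays were the high ones. The gene B0416.7 had signals of 16 and 40.3 in N2 and 25.9 and 24 in the mutant. The neuropeptide gene nlp-35 read 13.1 and 33.7 in N2 and 24.6 and 25 in the mutant, a difference of 1.34 that held 1 N2 signal below the limit.

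Some genes had higher signals with octopamine in both strains and a larger change in N2. The asparagine synthetase gene asns-2 read 204 and 1108 in N2 and 539 and 1335 in the double mutant. Both treated arrays were high, and the difference of 1.13 came with a higher untreated signal in the mutant. The aquaporin gene aqp-8, for a water channel, read 30.9 and 130 in N2 and 29.9 and 60.1 in the mutant, a difference of 1.07 set by the treated arrays. The tyrosine aminotransferase gene tatn-1 was at 0.90, with changes of 1.29 in N2 and 0.39 in the mutant. Over the lists these genes belong to, the median was 0.03 for 20 genes of amino acid metabolism and 0.02 for 20 osmotic response genes, equal or near to that of all genes.

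Neuropeptide genes of the FMRFamide-like family, short amidated peptides that tune muscle, gut and neuron activity, were shifted toward N2. Of 21 kept of 25 on the array, 18 had a positive difference, 9 were at least 0.5 and 0 were at most -0.5, and the median was 0.34. Over all genes 52.4% were positive, 7.51% and 5.53% were past these limits, and the median was 0.02. In the double mutant 15 of the 21 were lower with octopamine (58.1% of all genes), and in N2 16 were higher (41.6% of all genes). The treated mutant array was below the treated N2 array for 19 of the 21, against 59.7% of all genes. The median octopamine change was 0.20 in N2, -0.10 in the double mutant and -0.02 in daf-16. For 11 of the 21 the daf-16 change was nearer to that of N2 than to that of the double mutant, against 59.4% of all genes. The median difference ran from 0.21 to 0.41 over the other processing settings, the lowest of these with a stricter limit on signal.

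Values of single members show the size of this shift. The gene flp-3 read 21.7 and 35.5 in N2 and 20.4 and 10.2 in the double mutant, a difference of 1.71. The gene flp-11 read 20.5 and 25.9 against 24.8 and 14.5, at 1.11. In both the treated mutant array was the lowest and lay under the limit of 15.5. The brighter flp-18 read 49.8 and 56.1 in N2 and 46.9 and 27.9 in the mutant, at 0.92, and flp-1, at 63.6, 82.4, 49.3 and 34.9 in the same order, was at 0.87. The lowest member of the family, flp-17, named after its value was seen, was at -0.20.

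Other peptide genes and neuron markers did not share it to the same degree. Of 26 other neuropeptide genes 5 (19.2%) were past 0.5 and 2 (7.69%) past -0.5, against 7.51% and 5.53% of all genes. Their median was 0.11, and the highest were nlp-35 and nlp-49, the latter at 1.15. Of 13 insulin-like genes the median was -0.03, with ins-35 at 1.23, from signals of 31.4 and 59.8 in N2 and 56.2 and 45.7 in the mutant, and ins-6 at 0.75. Of 33 neuron markers kept of 40, the median was -0.02, with 3 (9.09%) past 0.5 and 1 (3.03%) past -0.5. That 1 was unc-25, the glutamate decarboxylase that makes GABA, at -1.36 from dim signals of 24.8 and 14 in N2 and 10.2 and 14.7 in the mutant. The summed signal of the neuron markers was 4787 and 4823 in N2 and 4439 and 4119 in the double mutant.

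The Skp1-related skr genes, adaptors that link F-box proteins to cullin ubiquitin ligases, were also shifted toward N2. Of 17 kept of 19, 14 (82.4%) had a positive difference, 7 (41.2%) were at least 0.5 and 0 at most -0.5, and the median was 0.36. Over all genes these shares were 52.4%, 7.51% and 5.53%. The gene skr-8 read 570 and 1091 in N2 and 988 and 925 in the double mutant, and skr-9 read 493 and 772 against 1006 and 784. In both the untreated N2 array was the lowest and the other 3 were closer together. Like skr-13, at 633 and 1017 in N2 and 964 and 830 in the mutant, they were read by probe sets marked as matching more than 1 transcript, so their signals may not be separate. The gene skr-11 had a different form, with 59.1 and 48.7 in N2 and 60.3 and 19.9 in the mutant and the highest difference, 1.32. Without probe sets that match several transcripts the median was 0.32.

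The list with the highest median, 0.85, held only the uncharacterised pud-3 and pud-4, which were lower with octopamine in both strains: pud-3 read 1964 and 512 in N2 and 1523 and 214 in the double mutant, at 0.89, and pud-4 was at 0.82. The F-box genes themselves, 134 of them kept, had a median difference of 0.11, with 17 (12.7%) past 0.5 and 6 (4.48%) past -0.5. Proteasome subunits had a median of 0.16 over 33 genes, with 3 (9.09%) past 0.5, near the 7.51% of all genes, and 0 past -0.5. The base subunit gene rpt-4 read 1580 and 1591 in N2 and 1750 and 1182 in the double mutant. Of the 33, 32 were lower with octopamine in the mutant and 24 in N2, against 58.1% and 58.4% of all genes. Mitochondrial ribosomal proteins had a median of 0.15 over 57 genes, while the 80 cytosolic ribosomal proteins had a median of -0.05 and 0 past 0.5 in either direction, with a range of -0.42 to 0.30.

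**Figure D3:**
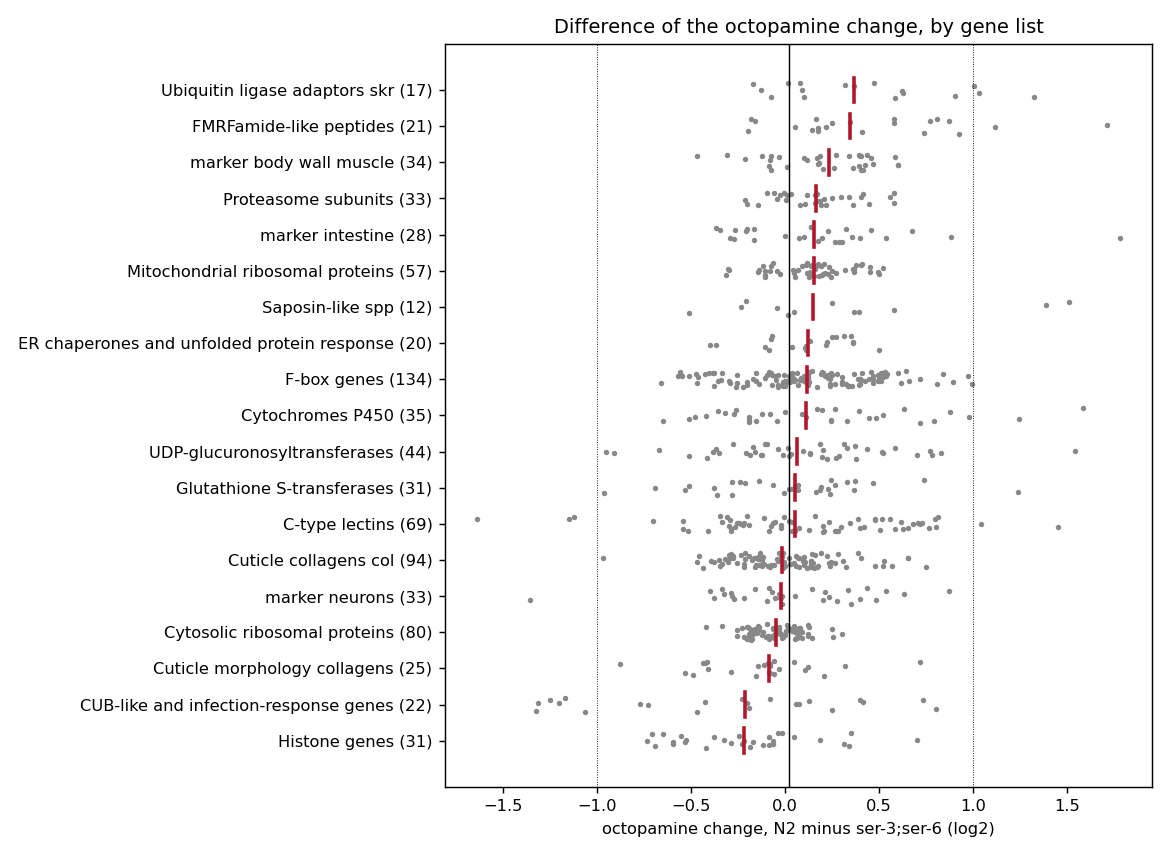
Difference of the octopamine change between N2 and ser-3;ser-6 (x axis, log2) for the members of 19 gene lists, 1 point per gene kept and the number kept in brackets, with the median of each list as a red bar. The solid line is the median of all genes at 0.02 and the dotted lines mark differences of 1 and -1; the skr and FMRFamide-like lists lie to the right at 0.36 and 0.34, and the histone and CUB-like lists to the left at -0.22 for each.

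On the other side of zero, 14 of 22 genes with CUB-like domains or other ties to infection had a negative difference, against 47.6% of all genes, and 8 had a positive one. Many of these genes are expressed in the intestine and are known as targets of pathogen-response pathways, and the dod members were named for lying downstream of DAF-16. Of the 22, 6 had a difference of at most -1, where all genes gave 0.283%. At most -0.5 were 8 (36.4%, against 5.53% of all genes) and at least 0.5 were 2 (9.09%, against 7.51%). The median octopamine change was -0.99 in N2 and -0.50 in the mutant, and the median difference was -0.22. In N2 20 of the 22 were lower with octopamine, and in the mutant 18 were, against 58.4% and 58.1% of all genes.

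The strains differed in these genes before any octopamine was given. The brightest, C32H11.4, read 791 and 142 in N2 and 149 and 67.4 in the double mutant. The untreated mutant array thus lay at the level of the treated N2 array, and octopamine went with a lower signal in both strains, by -2.47 and -1.15. The gene dod-17 read 115 and 32.3 in N2 and 27 and 18.9 in the mutant, and dod-22 read 66.4 and 24 against 20.9 and 17.4. In each the untreated N2 array was the high one and the other 3 were lower, with differences of -1.32 and -1.21. Of the 22 genes, 18 had a lower untreated signal in the mutant than in N2, against 59.1% of all genes. The median strain ratio was -0.57 without and -0.37 with octopamine, against -0.05 and -0.07 over all genes.

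Further members repeated the pattern or reversed it. The gene cld-9 read 86 and 38.1 in N2 and 35.8 and 37.8 in the double mutant, a difference of -1.25. Picked after their values were seen, F55G11.2 and F55G11.8 were at -1.17 and -1.07, the former with signals of 454 and 54.5 in N2 and 79.5 and 21.5 in the mutant. These lie beside dod-22 and dod-17 on chromosome IV: F55G11.8, dod-22 and F55G11.2 are direct neighbours in gene order and dod-17 is 2 genes on. Opposite to them were ZK896.5 at 0.80 and K08D8.5 at 0.73, both named after their values were seen, with lower ratios in the mutant. The median of the list lay between -0.14 and -0.36 over the other processing settings.

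Some genes outside the CUB-like list also had their highest signal in untreated N2. The gene clec-3 read 83.9 and 16.09 in N2 and 17.1 and 10.2 in the double mutant, a difference of -1.64. The sequence-named F15E6.4 read 281 and 63.1 against 92.7 and 82.4, at -1.98, and R03H10.6 read 268 and 62.2 against 152 and 96.1, at -1.44. For all 3 the untreated N2 array was the highest of the 4. The gene pcp-2, for a serine carboxypeptidase of the lysosomal type, read 81.7 and 17.8 in N2 and 32.4 and 18.8 in the mutant, at -1.41. The acyltransferase gene oac-32 was at -1.59, with a signal of 99.2 in untreated N2 and 33.6 to 43.6 on the other 3 arrays.

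The transcription factor gene ttx-1, needed for the identity of the AFD thermosensory neurons, stood at -1.83. Its signals were 67.4 and 26.1 in N2 and 31.7 and 43.6 in the double mutant. Another probe set of ttx-1, dimmer at a mean signal of 17.9, had a difference of -0.21, so the probe sets disagree in size. Such checks existed for 16 of the 107 genes, and in 14 of them the other probe sets, 15 in all, reached the limit. Of these 15 probe sets 13 had the same sign as the one used, and 7 also passed 0.5 in size. The calcium sensor gene stim-1, at -1.08 from 164 and 118 in N2 and 74.8 and 114 in the mutant, had another probe set at -0.71. For clec-57, picked as 1 of the 2 genes whose other probe set had the opposite sign, the main difference was 1.04.

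The lowest difference of all belonged to abf-2, which encodes a defensin-like antimicrobial peptide. It read 61.8 and 34.8 in N2 and 28.7 and 78.7 in the double mutant, and 35.4 and 19.9 in daf-16. Octopamine went with a lower signal in N2 and daf-16, both by -0.83, and with a higher one in the double mutant, by 1.45. Changes in both strains made up the difference of -2.28, with the untreated mutant array below and the treated one above N2. Among 15 epidermal antimicrobial-type peptide genes the median was -0.06, and the next were nlp-30 at -0.66, cnc-7 at -0.64 and cnc-4 at -0.49.

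Both genes that were higher with octopamine in the double mutant alone had a treated mutant array above all others. The lectin gene clec-86 read 63.2 and 67.5 in N2 and 88.3 and 205 in the mutant, a difference of -1.12. The laminin alpha gene lam-3, a component of basement membranes, read 35.4 and 39.8 in N2 and 36.7 and 84.8 in the mutant, a difference of -1.04. Its other probe set was at -0.44. The nuclear receptor gene nhr-90 was at -1.25 and the acyltransferase gene oac-20 at -1.05, each from signals of 12.58 to 24.3 and of 13 to 20.9.

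C-type lectins as a family held genes at both ends. Of 69 kept, 2 were at least 1 and 3 at most -1, and 17 (24.6%) were past 0.5 and 7 (10.1%) past -0.5, compared with 7.51% and 5.53% of all genes. Their median of 0.05 was near that of all genes. Saposin-like genes had a median of 0.15 over 12 kept, led by spp-12 and by spp-18, which read 514 and 751 in N2 and 1058 and 591 in the double mutant, at 1.39. As in cyp-13A5, the untreated mutant array was the highest for spp-18.

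Histone genes had a median difference of -0.22, equal in size to that of the CUB-like list, with 25 of 31 below zero, 9 (29.03%) past -0.5 and 1 (3.23%) past 0.5. Over all genes these shares were 47.6%, 5.53% and 7.51%. The gene his-62 read 610 and 159 in N2 and 434 and 189 in the double mutant, at -0.74, and his-64 read 441 and 145 against 331 and 176, at -0.69. Octopamine went with a lower signal in both strains, by more in N2. Of the 31, 21 were read by probe sets that match several transcripts. Without these probe sets the list median was -0.01, so the shift was not seen there. The part of shared probe sets in the shift was not tested. The linker histone gene hil-3, at 0.70, was the member past 0.5 on the other side.

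Genes known to be induced by fasting went both ways. Of 15 kept, 3 (20%) were past 0.5 and 2 (13.3%) past -0.5, against 7.51% and 5.53% of all genes. Their median of 0.12 became -0.13 with a stricter limit on signal. Beside lipl-1 stood fmo-2, a flavin monooxygenase, at 0.81 and with higher treated signals in both strains: 12.31 and 43.2 in N2 and 17.6 and 35.2 in the double mutant. The gene hlh-30, for the TFEB-type regulator of autophagy and lysosomal genes, read 117 and 89 in N2 and 61.2 and 88.7 in the mutant, a difference of -0.93. The untreated mutant array was the low one, the opposite of lipl-1. Over 52 genes of fatty acid activation and beta-oxidation the median was 0.14. Past 0.5 in each direction were 3 (5.77%), near the shares of all genes, among them acs-2 at -0.72 and acs-20 at 0.89.

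DAF-16 target lists had medians of 0.00 for 23 class I genes, which low insulin signalling raises, and of -0.20 for 15 class II genes, which it lowers. In class I, dod-6 at 1.37, from 195 and 226 in N2 and 150 and 67.4 in the double mutant, and mtl-2 at 0.88 lay opposite to the ferritin gene ftn-1 at -0.93. The ftn-1 signals were 166.2 and 288 in N2 and 142 and 467 in the mutant. The class II list shares dod-17 and dod-22 with the CUB-like list, and these are its only members past -0.5.

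The differences can also be read as contrasts between strains on each plate. Without octopamine, 22 genes (0.215%) had at least 2-fold higher signals in the double mutant than in N2 and 69 (0.673%) lower ones, and with octopamine 15 (0.146%) were higher and 133 (1.3%) lower. Among the 78 genes, 32 were past 1 between the strains with octopamine and within 0.5 without it, 6 were past 1 without it and within 0.5 with it, and the remaining 40 met neither pair of limits. Their median strain ratio was 0.28 untreated and -0.90 treated. Among the 29 genes the order was turned: 10 were past 1 untreated and within 0.5 treated, 2 the reverse, and 17 met neither pair of limits. The median strain ratio of the 29 was -1.1 untreated and 0.24 treated. Since the difference equals the untreated strain ratio minus the treated one, the direction of the shift in both sets followed from the choice of genes. In 16 of the 29 the untreated mutant array was at least 2-fold below the untreated N2 array.

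**Figure D4:**
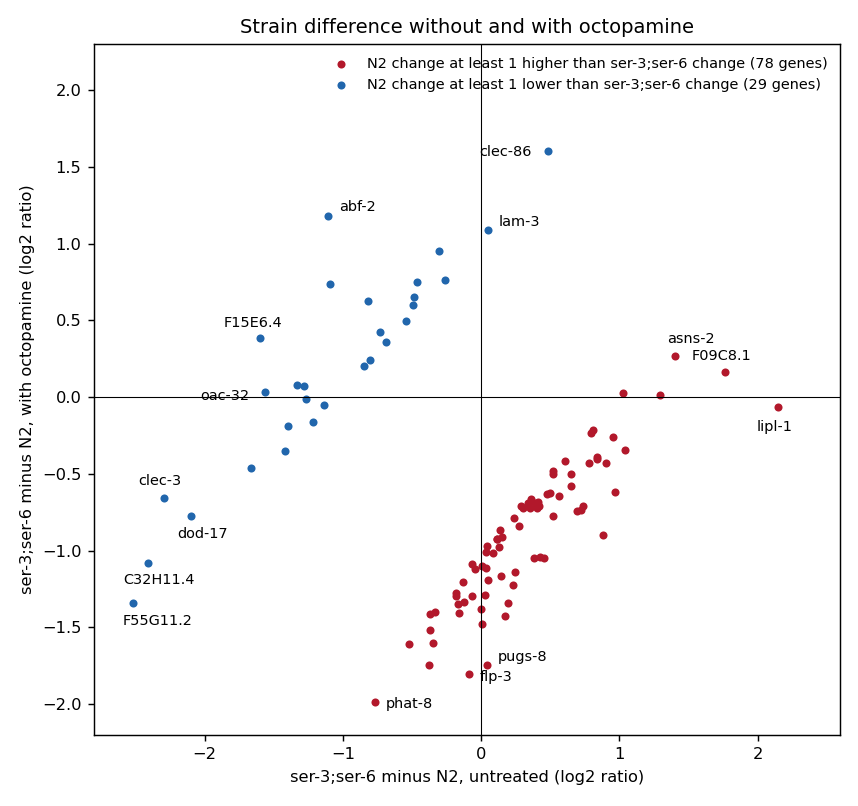
Log2 ratio of ser-3;ser-6 over N2 without octopamine (x axis) and with octopamine (y axis) for the 78 genes (red) and 29 genes (blue) whose octopamine change differed by at least 1. The red points spread downward, with a median of -0.90 on the y axis, and the blue points spread to the left, with a median of -1.1 on the x axis; lipl-1, F09C8.1 and asns-2 are far to the right, where the untreated double mutant was high.

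Single arrays could be followed through the same genes. The treated double mutant array had the lowest signal of all 6 arrays in 52 of the 78 genes, while over all genes kept it was the lowest in 36.1% and no other array in more than 13.9%. The treated N2 array was the highest in 30 of the 78 and the untreated mutant array in 22, against 13.6% and 11.7% of all genes. Among the 29, the untreated N2 array was the highest in 16, against 23.6% of all genes. Choosing genes by the difference itself favours such extremes, so an excess over the shares of all genes follows in part from the choice. The treated double mutant array thus was lowest more often than the others before any gene was chosen, and a difference that uses it takes up whatever sets that array apart. The part of this in the counts was not tested.

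The daf-16 pair gives octopamine changes that the difference did not use. Of the 107 genes, 85 (79.4%) had a daf-16 change nearer to that of N2 than to that of the double mutant: 64 of the 78 (82.1%) and 21 of the 29 (72.4%). Over all genes kept this was so for 6091 (59.4%). The median daf-16 change was 0.13 for the 78 genes, between 0.39 in N2 and -0.83 in the mutant, and -0.60 for the 29, between -1.07 and 0.19. Since genes were picked for N2 and the double mutant lying far apart, a change near zero in daf-16 falls nearer to whichever of the others is smaller. Examples in which daf-16 went with the double mutant were pcp-2, at -2.2, -0.62 and -0.79 in N2, daf-16 and the mutant, and dod-22, at -1.47, -0.30 and -0.26.

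**Figure D5:**
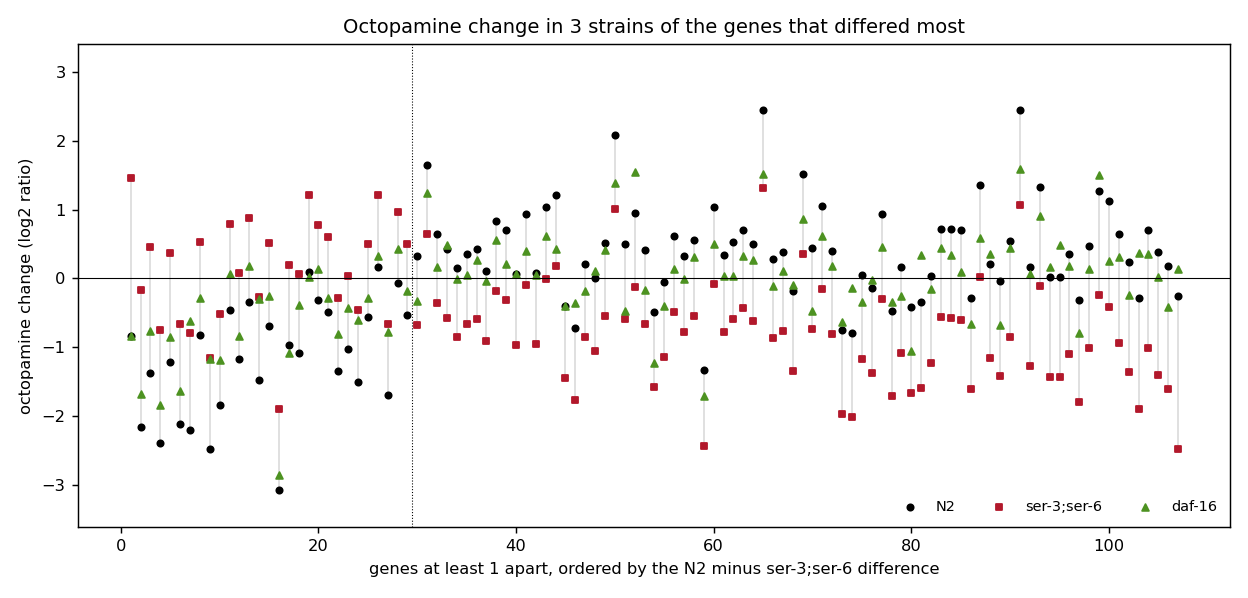
Octopamine change (y axis, log2 ratio) in N2 (black circles), ser-3;ser-6 (red squares) and daf-16 (green triangles) for the 107 genes at least 1 apart, ordered along the x axis from abf-2 at -2.28 to lipl-1 at 2.21, with the dotted line between the 29 and the 78. Grey bars join N2 and ser-3;ser-6, and the daf-16 point lies nearer to N2 in 85 of the 107.

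For comparison, the N2 minus daf-16 difference, which shares both N2 arrays, was at least 1 for 6 genes (0.0585%) and at most -1 for 15 (0.146%). The daf-16 minus double mutant difference, which shares both mutant arrays, was at least 1 for 82 (0.8%) and at most -1 for 27 (0.263%). The comparisons that hold the double mutant thus had more genes past the limit. Within daf-16 itself, 79 genes (0.771%) were past 1 upward with octopamine and 117 (1.14%) downward.

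Markers of tissues were read beside these values. Body wall muscle genes had a median difference of 0.23 over 34 kept of 35, with 25 (73.5%) positive, 3 (8.82%, near the 7.51% of all genes) past 0.5 and 0 past -0.5, led by dim-1 and atn-1 at 0.60 each and tni-3 at 0.58. Their summed signal was 16580 untreated and 19403 treated in N2, and 13173 and 13294 in the double mutant, which was lower than N2 in 29 of 34 genes untreated and in 30 treated, against 59.1% and 59.7% of all genes. Intestine markers had a median of 0.15 over 28, sperm markers 0.23 over 11 kept of 20, and germline, oocyte and embryo markers -0.06, -0.05 and -0.10. Hypodermis and larval cuticle markers were both at -0.08, coelomocyte markers at 0.14 and pharynx markers at -0.02.

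None of the marker signals was at 0. The intestine sum was 47625 and 41213 in N2 and 49922 and 39474 in the mutant, and the sperm sum 1572 and 1531 against 1360 and 1079. Hypodermis gave 18072 and 18709 against 13391 and 15707, and embryo 16614 and 14893 against 14989 and 14419. As a measure of RNA quality, the ratio of the 3′ over the 5′ probe set of Gapdh was 1.23 and 1.05 in N2 and 0.919 and 1.09 in the mutant. That of ubiquitin was 5.32 and 5.77 against 5.48 and 6.23, the treated mutant array being the highest. For catalase the ratio was 1.69 and 1.72 in N2 and 2.17 and 2.15 in the mutant, higher in the mutant on both plates. For gly14 it was 0.437 and 0.225 against 0.241 and 0.224, the untreated N2 array being the highest. The part of tissue make-up and RNA quality in the differences was not tested.

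Some of the 107 genes lie close together on the chromosomes. Beside the group on chromosome IV, spp-12 and lbp-8 are neighbours on chromosome V, as are spig-11 and T02B11.4, at 1.1 and 1.39, and on chromosome IV dct-7 and F15E6.4, at -1.04 and -1.98, and skr-9 and skr-8. Within 5 genes of each other were lipl-1 and T16G1.6 on chromosome V, at 2.21 and 1.08, C32H11.4 and K08D8.4 on chromosome IV, at -1.33 and -1.05, and flp-11 and aqp-8 on chromosome X, at 1.11 and 1.07. Each pair lay on the same side of zero. Those pairs were found after the values were seen.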

How the data were processed

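RNA of whole animals was prepared with TRIzol and biotin-labelled by 3′ in vitro transcription, per the labels' protocols, and hybridised to 1 Affymetrix array per group. The authors deposited 1 table of intensity values on a linear scale, with a value for each probe set on each array. How probes were summarised and arrays normalised, and the genome build of the array design, are not given in the sources used here.

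Of 22625 probe sets, 77 controls were left out. The platform annotation gave 1 gene for 20766 of the remaining 22548, several genes for 887, which were not used, and no name for 895. Identifiers of 20701 matched the gene table of assembly WBcel235, which served for names and gene order, and 0 symbols changed. A gene read by several probe sets was represented by the brightest, judged by the mean of all 6 arrays. Of the genes kept, 3595 were read by probe sets whose suffix marks a match to several transcripts. Values were taken to log2 without a pseudocount, each array's median was subtracted, and the mean of the medians was added back for the signals printed. The deposited array medians were 23.8 for untreated and 25.3 for treated N2, and 25.1 and 26 for the double mutant. Of 17118 genes, the 10251 with a mean at or above the 40th percentile over probe sets, which was a signal of 15.5, were kept. Precision is limited by having 1 array per group, and the design allows no test. The calculation was tested on simulated data.

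The 69 gene lists and the genes described were chosen with earlier results of these data known. Named genes are the 15 highest and 15 lowest differences among genes with locus names, the 3 highest and 3 lowest among sequence names, up to 4 members with the largest difference in each list described, and the octopamine genes and daf-16. Other genes are said to be picked after their values were seen. The alternatives were the values as deposited, quantile normalisation, a pseudocount of 16, no filter, a 60th percentile filter, a filter over the 4 arrays, the mean over probe sets, and leaving out probe sets with a suffix. Calculations ran in Python 3.11.15 (pandas 2.3.3, numpy 2.4.6) and plots in matplotlib 3.10.9.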

Additional observations from a re-analysis of the deposited data

Results flagged for a closer look

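With 1 array per group no check for a sample far from the others could be made. Among the genes at the ends of the range, 5 had octopamine changes past 0.5 in size in opposite directions in N2 and in the ser-3;ser-6 double mutant. On the log2 scale the difference was 1.71 for the neuropeptide gene flp-3, 1.59 for the cytochrome P450 gene cyp-13A5 and 1.39 for the saposin-like gene spp-18, all higher with octopamine in N2 and lower in the double mutant. It was -2.28 for the antimicrobial peptide gene abf-2 and -1.36 for the GABA synthesis gene unc-25, both the other way. These differences were not tested. The signals of flp-3 and unc-25 fell below the filter limit of 15.5 on at least 1 of the 4 arrays, and abf-2 was read by a probe set that matches more than 1 transcript.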

How the results depend on the processing

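No paired analysis was possible because each group holds 1 array, all labelled replicate 1, and for the same reason no replicate could be left out. The 78 and 29 genes past a difference of 1 became 35 and 12 with a pseudocount of 16, and 47 and 12 with the filter at the 60th percentile. With the pseudocount 35 and 12 of the genes were shared with the main setting. The stricter filter only drops genes and leaves each difference unchanged, so its 47 and 12 genes were among the 78 and 29 by construction. The other settings gave 60 to 93 higher and 24 to 36 lower genes. The share of higher genes, 72.9%, ran from 67.0% after quantile normalisation to 79.7% with the stricter filter. Of the 36 genes named at the ends of the range 0 changed sign where they were measured, and 13 no longer reached 1 with the pseudocount. Only 15 were measured with the stricter filter, 28 without probe sets with a suffix and 35 with the filter over the 4 arrays. With the mean over probe sets 2 no longer reached 1, and without probe sets with a suffix 1 did not. Among gene lists, 32 had a median of at least 0.1 in size, and 2 of them changed sign: fasting-induced genes, at 0.12, became -0.13 with the stricter filter, and flavin monooxygenases, at -0.26, became 0.010 with the mean over probe sets. The cause was not tested. The median over all genes, 0.02, was 0.06 without median subtraction and 0.00 after quantile normalisation.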
